A study of Mus musculus with 2 samples.

Results

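Granzymes and their granule partners were followed in RNA of mouse peritoneal macrophages that had spent 4 days in co-culture with EO771, a mammary carcinoma line of the mouse. The set holds 10 genes, chosen by name, out of 15605 genes listed in the files. They are the granzymes Gzma, Gzmb, Gzmc, Gzmd, Gzme and Gzmg, the pore-forming protein gene Prf1, and the granule genes Nkg7, Ctsw and Srgn, with Gzmd, Gzme and Gzmg also taken as a sum. There was 1 library from lgmn-/- mice and 1 from wild type mice, both C57BL/6 and 6 to 8 weeks old. The lgmn-/- mice lack legumain, a lysosomal cysteine protease. The labels do not say whether cells of several mice were pooled, how the macrophages were purified, or whether a membrane kept them apart from the carcinoma cells. All cells in both libraries had been co-cultured, so there was no group without EO771 cells.

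Cytotoxic lymphocytes, above all natural killer (NK) cells and CD8 T cells, store granzymes in secretory granules. Perforin, the product of Prf1, makes pores through which granzymes enter a target cell, where these serine proteases cut proteins that lead to death. Granzyme B cuts after aspartate and activates caspases, granzyme A cuts after lysine or arginine, and serglycin, the product of Srgn, is the proteoglycan that packs them into the granule. Mice carry a row of granzyme genes next to Gzmb, most of which humans lack, and these genes come on in strongly activated killer cells. Macrophages make serglycin in quantity and are not a usual source of perforin.

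The files are gene tables of estimated read counts and of FPKM, fragments per kilobase of transcript scaled to the fragments mapped in each library. FPKM is used below to compare genes with each other, and estimated counts to compare the libraries. The knockout library held 11740202 estimated counts and the wild type library 11885784. Ratios are knockout over wild type after TMM scaling, which sets the bulk of genes level. The 95% exact interval given with a ratio accounts for counting error alone, and without molecular identifiers reads need not be independent molecules. With 1 library per group, replicate error could not be estimated and no test across samples was run. The genes of this set were chosen with results of these data known, so their values are a description. Lgmn itself had 426 counts in the knockout library and 23550 in the wild type library, 64.4-fold lower (58.5 to 71.1), so the libraries follow their genotype labels.

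Gzmb, Gzmc, Gzmd, Gzme and Gzmg lie in one cluster on chromosome 14, all on the minus strand, together with Gzmf and Gzmn. Their likeness decides how well the reads can be told apart, so the first 120 coding bases of the 3 most alike genes are shown with those of Gzmb, from GENCODE M21 on GRCm38, 5' to 3'. Capitals mark bases that differ from Gzmd at the same position.
Gzmd: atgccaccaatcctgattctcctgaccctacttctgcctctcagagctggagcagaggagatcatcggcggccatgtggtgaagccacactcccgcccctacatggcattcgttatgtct
Gzme: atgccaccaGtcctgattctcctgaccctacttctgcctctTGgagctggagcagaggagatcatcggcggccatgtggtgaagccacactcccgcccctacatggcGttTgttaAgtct
Gzmg: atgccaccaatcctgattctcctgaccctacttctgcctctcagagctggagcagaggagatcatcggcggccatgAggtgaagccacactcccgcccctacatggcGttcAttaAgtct
Gzmb: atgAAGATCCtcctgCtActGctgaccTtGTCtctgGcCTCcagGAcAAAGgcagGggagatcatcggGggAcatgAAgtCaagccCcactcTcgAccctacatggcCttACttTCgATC
These stretches run from the first coding base into the second coding exon, at chr14:56131316-56132522 for Gzmd, chr14:56119384-56120556 for Gzme, chr14:56158381-56159524 for Gzmg and chr14:56261170-56262149 for Gzmb. Gzme differed from Gzmd at 6 of the 120 positions, Gzmg at 4 and Gzmb at 41. Over the whole coding sequence, Gzme was 93.3% identical to Gzmd and Gzmg 86.6%, while Gzmb was 65.1% identical to Gzmd and Gzmc 71.1%. Of all 50-base windows of the Gzmd transcript, 21.9% also occurred in a transcript of another gene, and the share was 20.6% for Gzme and 19.8% for Gzmg. It was 4.14% for Gzmc and 0% for Gzma, Gzmb, Prf1, Nkg7, Ctsw and Srgn. The genes that shared windows with Gzmd, Gzme or Gzmg were all members of the chromosome 14 cluster. With 100-base windows the shares fell to 0.231% for Gzmd, 0% for Gzme and 0.247% for Gzmg. The labels give no read length, and the estimated counts of the 3 genes are not whole numbers, so reads were divided among copies by an estimate. For this reason their sum is given beside the single genes.

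The granule genes did not move as a block. Ctsw, Gzmb, Prf1, Gzma and Nkg7 were higher in the knockout library, Gzmc was close to level, Srgn was somewhat lower, and the similar granzymes Gzmd, Gzme and Gzmg were the lowest. All 10 genes reached the minimum used here, 50 estimated counts in the library where they were higher. Of these, 1 passed 2-fold upward in the knockout library, 3 passed 2-fold downward and 6 lay between. Over all 9498 genes that reached the minimum, 6.07% passed 2-fold upward (577 genes) and 1.74% downward (165 genes). Scaled by library totals, 1036 genes passed upward and 107 downward. The median log2 ratio was 0.22 over the 10 genes, against -0.00035 over all genes tested. The genes had been chosen with the ratios known, so nothing is read from these shares.

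**Figure D1:**
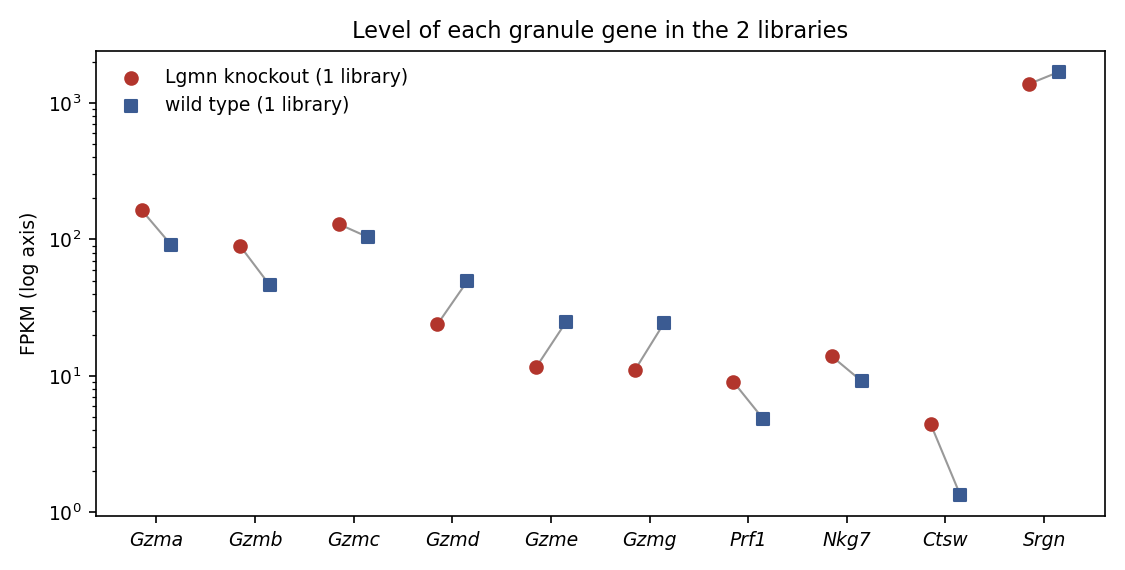
FPKM (log axis) of each of the 10 granule genes in the Lgmn knockout library (circles, left) and the wild type library (squares, right), 1 library each, with a line joining the same gene. Gzmd, Gzme and Gzmg are the granzymes that lie lower in the knockout library, while Gzma, Gzmb and Gzmc lie higher in FPKM, and Srgn lies far above the rest.

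Gzmb, granzyme B (Entrez gene 14939, chr14:56258836-56262334 in GRCm38), had 1490 estimated counts in the knockout library and 780 in the wild type library. Its FPKM was 89.4 in the knockout library and 46.2 in the wild type library. The ratio was 1.64 (1.5 to 1.79), so counting error alone does not cover the difference. Gzma, granzyme A (Entrez gene 14938, chr13:113093824-113100981), lies on another chromosome and had 1667 counts in the knockout library and 939 in the wild type library. Its FPKM was 164 in the knockout library and 91.3 in the wild type library, the highest of the granzymes in the knockout library. The ratio was 1.52 (1.41 to 1.65). Both genes lay short of 2-fold under each scaling tried.

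Prf1, perforin (Entrez gene 18646, chr10:61297751-61304684), had 220 counts in the knockout library and 120 in the wild type library, with an FPKM of 9.04 in the knockout library and 4.86 in the wild type library. Its ratio was 1.57 (1.25 to 1.98). The count of Prf1 per count of Gzmb was 0.148 in the knockout library and 0.154 in the wild type library, and that of Gzma per count of Gzmb was 1.12 in the knockout library and 1.20 in the wild type library. These quotients do not depend on how the libraries are scaled to each other, and their intervals include equality: the knockout quotient was 0.96 times that of wild type for Prf1 (0.75 to 1.23) and 0.93 times for Gzma (0.82 to 1.05). The interval for Prf1 is wide.

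Ctsw, cathepsin W (Entrez gene 13041, chr19:5465043-5468628), a cysteine protease found in NK and CD8 T cells, had 75 counts in the knockout library and 23 in the wild type library. Its FPKM was 4.44 in the knockout library and 1.34 in the wild type library. The ratio was 2.80 (1.73 to 4.68), the highest of the set, and it rests on few reads. Nkg7 (Entrez gene 72310, chr7:43437138-43438246), a membrane protein of cytotoxic granules that is needed for their release, had 130 counts in the knockout library and 87 in the wild type library. Its FPKM was 13.9 in the knockout library and 9.16 in the wild type library, and the ratio of 1.28 had an interval that includes equality (0.97 to 1.70).

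Gzmd, Gzme and Gzmg were lower in the knockout library by similar amounts. Gzmd (Entrez gene 14941, chr14:56129556-56132603) had 260 counts in the knockout library and 542 in the wild type library, with an FPKM of 23.9 in the knockout library and 49.2 in the wild type library. Gzme (Entrez gene 14942, chr14:56117619-56120625) had 124 counts in the knockout library and 267 in the wild type library, with an FPKM of 11.6 in the knockout library and 24.6 in the wild type library. Gzmg (Entrez gene 14944, chr14:56156581-56159579) had 120 counts in the knockout library and 272 in the wild type library, with an FPKM of 10.99 in the knockout library and 24.6 in the wild type library. They were 2.43-fold (2.09 to 2.83), 2.51-fold (2.02 to 3.13) and 2.64-fold (2.12 to 3.30) lower in the knockout library.

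Summed, the 3 genes had 503 counts in the knockout library and 1081 in the wild type library, 2.50-fold lower (2.25 to 2.79), and this value does not depend on how reads were split among them. The count of Gzmd per count of Gzme was 2.103 in the knockout library and 2.03 in the wild type library, and per count of Gzmg 2.17 in the knockout library and 1.99 in the wild type library, and both intervals of the difference include equality (0.79 to 1.35 times for Gzme and 0.83 to 1.43 times for Gzmg). Of all 9498 genes tested, 97 had a ratio as low as that of Gzmd or lower, 95 as low as that of Gzme and 86 as low as that of Gzmg. Gzmf, which is not in the set and shares 83.3% of its coding bases with Gzmd, had 18.1 counts in the knockout library and 47.4 in the wild type library, under the minimum, and was 3.04-fold lower (1.73 to 5.57). Gzmn was not listed in the knockout library and had 2.09 counts in the wild type library, so no fold is given. Adding Gzmf and Gzmn to the sum gave 521 counts in the knockout library and 1131 in the wild type library, 2.53-fold lower (2.28 to 2.81).

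**Figure D2:**
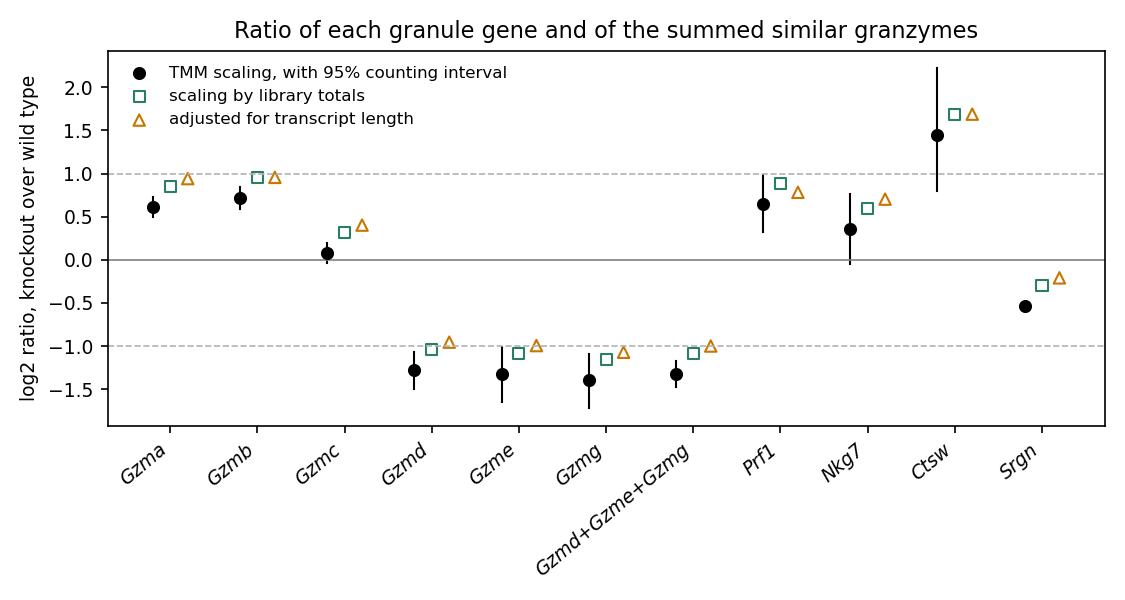
Log2 ratio of knockout over wild type for each granule gene and for the sum of Gzmd, Gzme and Gzmg, with TMM scaling (filled points, bars are 95% counting intervals), scaling by library totals (squares) and adjustment for transcript length (triangles). Dashed lines mark 2-fold. The sum lies at -1.32 with TMM scaling, at -1.08 with totals and at -0.9996 after adjustment, while Gzma and Gzmb stay between 0 and 1.

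Gzmc (Entrez gene 14940, chr14:56231397-56241647), the neighbour of Gzmb, differed little. It had 1415 counts in the knockout library and 1148 in the wild type library, with an FPKM of 130 in the knockout library and 104 in the wild type library. The ratio was 1.06, with an interval that includes equality (0.98 to 1.14), and its log2 value of 0.08 was 0.32 when library totals were used. In both libraries Gzmc had a higher FPKM than Gzmb, and in the wild type library it had the highest FPKM of the granzymes.

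Srgn (Entrez gene 19073, chr10:62493833-62527445) stood apart from the other granule genes in level. It had 15028 counts in the knockout library and 18639 in the wild type library, with an FPKM of 1382 in the knockout library and 1691 in the wild type library. It was 1.45-fold lower in the knockout library (1.41 to 1.48). Its log2 ratio of -0.53 was -0.29 with library totals and -0.21 after adjustment for transcript length, so its size depended on these choices while its sign did not. Macrophages also express Srgn, and bulk RNA does not assign its counts to a cell type.

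The make-up of the granzyme signal differed between the libraries, and this comparison is free of the scaling between them. Of the summed FPKM of Gzma, Gzmb, Gzmc, Gzmd, Gzme, Gzmf and Gzmg, 431 in the knockout library and 344 in the wild type library, Gzma made up 38.1% in the knockout library and 26.5% in the wild type library. Gzmb made up 20.7% in the knockout library and 13.4% in the wild type library. Gzmd, Gzme and Gzmg together made up 10.8% in the knockout library and 28.6% in the wild type library, while Gzmc made up 30.04% in the knockout library and 30.2% in the wild type library. For each count of Gzma and Gzmb there were 0.159 counts of Gzmd, Gzme and Gzmg in the knockout library and 0.629 in the wild type library, a quotient 3.95-fold lower in the knockout library (3.49 to 4.46). Against Gzmc it was 2.65-fold lower (2.32 to 3.03).

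**Figure D3:**
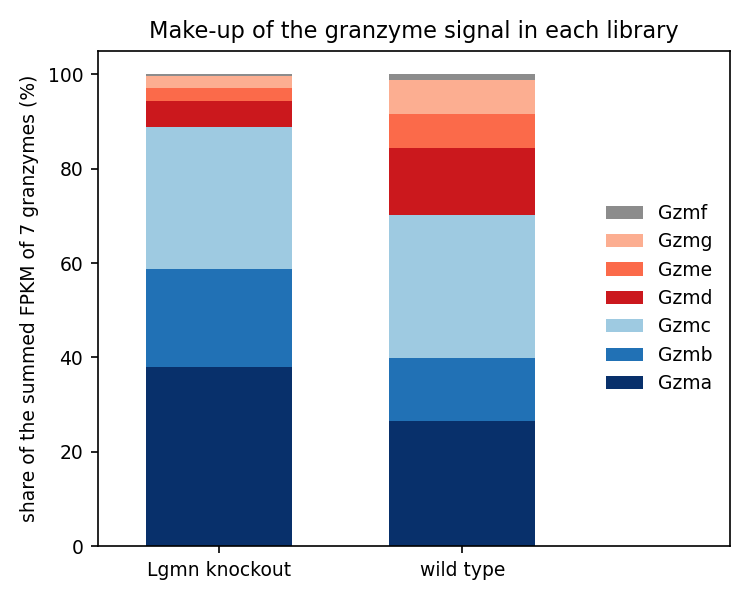
Share of each granzyme in the summed FPKM of 7 granzymes (%), stacked from 0, in the Lgmn knockout library (left) and the wild type library (right), 1 library each. The red segments, Gzmd, Gzme and Gzmg, add up to 10.8% in the knockout library and 28.6% in the wild type library, and the Gzmc segment is alike at 30.04% in the knockout library and 30.2% in the wild type library.

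Along chromosome 14, the ratios of the cluster genes went both ways. Measured between the 5' ends of the annotated gene spans, Gzmc starts 20.7 kb from Gzmb, Gzmf at 50.9 kb, Gzmg at 103 kb, Gzmd at 130 kb and Gzme at 142 kb. In this order the log2 ratios were 0.71 for Gzmb, 0.08 for Gzmc, -1.55 for Gzmf, which was under the minimum, -1.39 for Gzmg, -1.28 for Gzmd and -1.32 for Gzme. Summed over Gzmb, Gzmc, Gzmd, Gzme, Gzmf, Gzmg and Gzmn, the cluster had 3426 counts in the knockout library and 3059 in the wild type library, a ratio of 0.96 (0.91 to 1.01). The log2 ratio of this sum was -0.06 with TMM scaling and 0.18 with library totals, so its sign depended on the scaling. Outside the granzymes, Khnyn on the same chromosome had a log2 ratio of 0.71 and its neighbour Sdr39u1 one of 0.01.

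**Figure D4:**
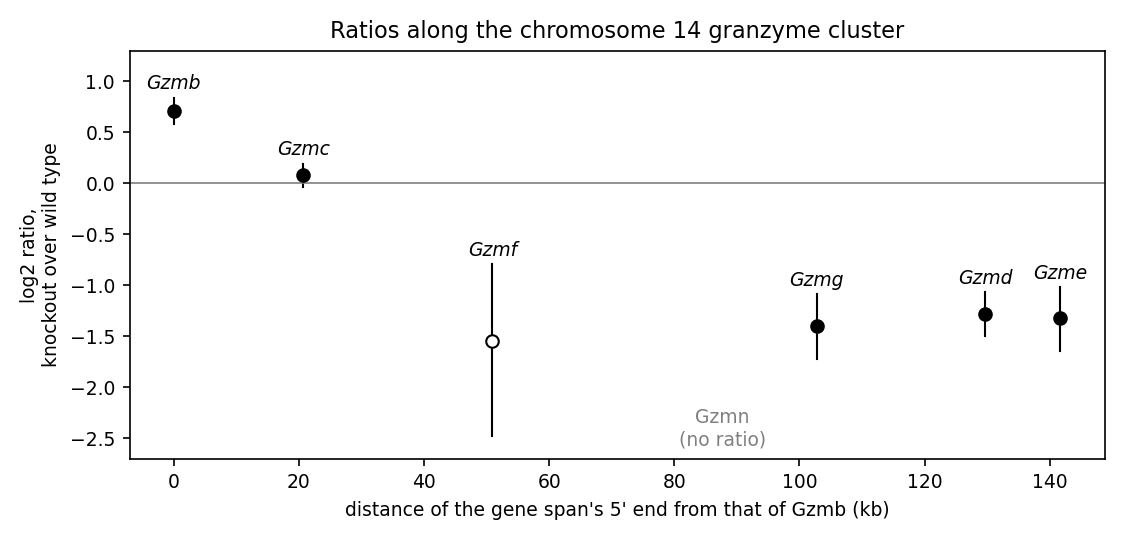
Log2 ratio of knockout over wild type (points, with 95% counting intervals) against the distance of the 5' end of each gene's annotated span from that of Gzmb (kb) on chromosome 14. Gzmf (open point) had under 50 counts, and Gzmn is marked without a ratio because it was not listed in the knockout library. Gzmb lies above 0, Gzmc near 0, and Gzmg, Gzmd and Gzme below -1.

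The promoter windows of the cluster genes are shown because those of Gzmd, Gzme, Gzmg and Gzmc are similar. Each window holds 250 bases before and 50 after the annotated start, on the minus strand of GRCm38.p6, from RefSeq, written 5' to 3'. The window of Gzmc belongs to a start inside its gene span, farther from Gzmb than the 5' end of the span. Capitals mark matches, on either strand, to the Runx core TGTGGT, the T-box core GGTGTGA, the AP-1 motif TGANTCA or the STAT motif TTCNNNGAA, factors known to act in killer lymphocytes.
Gzmd, chr14:56132544-56132843: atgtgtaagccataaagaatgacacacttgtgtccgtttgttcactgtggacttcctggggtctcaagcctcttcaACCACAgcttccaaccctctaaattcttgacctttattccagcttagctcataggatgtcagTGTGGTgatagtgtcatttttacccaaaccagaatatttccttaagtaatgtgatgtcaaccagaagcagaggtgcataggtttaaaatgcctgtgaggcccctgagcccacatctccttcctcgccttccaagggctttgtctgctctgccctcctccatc
Gzme, chr14:56120576-56120875: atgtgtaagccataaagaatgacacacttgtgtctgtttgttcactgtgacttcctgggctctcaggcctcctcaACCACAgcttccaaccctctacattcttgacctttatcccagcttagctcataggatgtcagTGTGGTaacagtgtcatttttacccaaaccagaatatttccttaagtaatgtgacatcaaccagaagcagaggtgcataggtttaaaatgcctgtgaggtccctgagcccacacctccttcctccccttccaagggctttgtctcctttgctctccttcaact
Gzmg, chr14:56159530-56159829: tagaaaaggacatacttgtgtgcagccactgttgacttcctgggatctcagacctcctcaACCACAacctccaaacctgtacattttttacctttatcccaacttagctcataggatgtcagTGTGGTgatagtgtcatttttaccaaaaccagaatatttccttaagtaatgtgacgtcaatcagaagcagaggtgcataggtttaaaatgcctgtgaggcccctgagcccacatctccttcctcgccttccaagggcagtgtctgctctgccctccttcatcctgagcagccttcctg
Gzmc, chr14:56234608-56234907: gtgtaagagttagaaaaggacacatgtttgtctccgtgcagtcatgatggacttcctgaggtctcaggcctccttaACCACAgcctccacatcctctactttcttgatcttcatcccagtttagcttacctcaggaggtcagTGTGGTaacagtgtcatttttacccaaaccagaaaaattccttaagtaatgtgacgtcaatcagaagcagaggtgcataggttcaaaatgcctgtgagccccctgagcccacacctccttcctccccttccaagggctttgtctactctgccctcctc
Gzmb, chr14:56262285-56262584: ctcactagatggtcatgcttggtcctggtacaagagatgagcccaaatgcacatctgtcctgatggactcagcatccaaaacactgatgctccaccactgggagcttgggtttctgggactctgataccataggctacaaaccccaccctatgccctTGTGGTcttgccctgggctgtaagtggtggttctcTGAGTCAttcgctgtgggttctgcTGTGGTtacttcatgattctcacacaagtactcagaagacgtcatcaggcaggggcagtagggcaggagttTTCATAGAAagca
The Gzmd window was 93.4% identical to that of Gzme, 81.0% to that of Gzmg and 82.7% to that of Gzmc, but 42.8% to that of Gzmb. The windows of Gzmc and Gzmg were thus about equally close to that of Gzmd. The part of promoter sequence or promoter use in the ratios was not tested. The Runx core stood at 2 places in each of the 5 windows, with first bases at -174 and -112 from the start in Gzmd, and at -93 and -34 in Gzmb. An AP-1 motif at -58 was found in Gzmb and in none of the other granule genes. The T-box core was found in Nkg7 alone, and the STAT motif in Gzmb and Nkg7. Of the 10 genes, 9 had a window, Ctsw being the exception, and Srgn had 2, which gives 10 windows. Of these, 9 held the Runx core, all but a window of Srgn, against 16.8% of all 32851 windows, and the windows of the similar granzymes are near copies of each other. The AP-1 motif stood in 7.81%, the STAT motif in 8.30% and the T-box core in 3.98% of all windows. A match is a description of letters and not evidence of binding.

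Cells other than macrophages were checked by lists of their markers. Macrophage genes dominated both libraries: the 17 markers had a summed FPKM of 32148 in the knockout library and 33709 in the wild type library. Adgre1, which encodes F4/80, had an FPKM of 111 in the knockout library and 67.3 in the wild type library, and Csf1r, the receptor for macrophage colony-stimulating factor, 193 in the knockout library and 83.8 in the wild type library. The receptor gene Mertk had a ratio of 2.35 (2.04 to 2.73). Ctss, the marker with the most counts, and Lyz2 were both 1.25-fold lower in the knockout library, and Cd68 was 1.63-fold lower (1.61 to 1.65). Of the 17 markers 10 had a positive log2 ratio, and the median of the 16 tested was 0.37. Of 16 tested 2 passed 2-fold upward and 0 downward, against 6.07% and 1.74% of all genes tested. In such bulk RNA, fewer cells of a type and less RNA per cell cannot be told apart.

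Markers of NK cells were present and were higher in the knockout library. All 23 were listed in both libraries, with a summed FPKM of 65.0 in the knockout library and 28.8 in the wild type library, and 18 of them had a positive log2 ratio. The list includes Cma1, which is better known from mast cells. Of the 7 that reached the minimum, 4 passed 2-fold upward and 0 downward, against 6.07% and 1.74% of all genes tested. The list median was 1.15. Klrd1, the receptor chain CD94, had 139 counts in the knockout library and 29 in the wild type library, a ratio of 4.11 (2.74 to 6.37). Klrb1c, the NK1.1 antigen in C57BL/6 mice, had a ratio of 3.99 (2.53 to 6.57), Klra8 one of 5.36 (2.52 to 13.1) and the activating receptor Klrk1 one of 2.24 (1.57 to 3.25). Klra8 and Klrb1c belong to families of similar copies, so their counts are uncertain. Ncr1, a receptor that defines NK cells, had 44 counts in the knockout library and 19 in the wild type library, below the minimum.

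T cell markers were also present. Of 25, 21 were listed, all but Trac, Trbc1, Trbc2 and Trdc, with a summed FPKM of 36.6 in the knockout library and 27.1 in the wild type library. Of the 6 with enough counts, 2 passed 2-fold upward and 0 downward, against 6.07% and 1.74% of all genes tested. They were Cd3d at 2.11-fold (1.26 to 3.63) and the kinase Lck at 2.05-fold (1.33 to 3.22), and the list median was 0.26. Cd3e had 7 counts in the knockout library and 2 in the wild type library, and Cd8a 24 in the knockout library and 10 in the wild type library. Others went the other way: Lat, an adaptor of T cell receptor signalling, had a ratio of 0.58 (0.42 to 0.80), Cd5 had 6 counts in the knockout library and 11 in the wild type library, and 15 of the 21 listed genes had a positive log2 ratio.

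Set against the NK cell markers, Gzma, Gzmb and the sum of Gzmd, Gzme and Gzmg were all lower in the knockout library, by different amounts. For each count of the summed NK cell markers there were 1.52 counts of Gzma in the knockout library and 1.91 in the wild type library. This was 1.25-fold lower in the knockout library (1.09 to 1.43). For Gzmb there were 1.36 counts in the knockout library and 1.59 in the wild type library, 1.16-fold lower in the knockout library (1.01 to 1.34). For Gzmd, Gzme and Gzmg there were 0.460 counts in the knockout library and 2.20 in the wild type library, 4.78-fold lower in the knockout library (4.10 to 5.57). The part of NK cell number in the ratios of the granule genes was not tested.

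**Figure D5:**
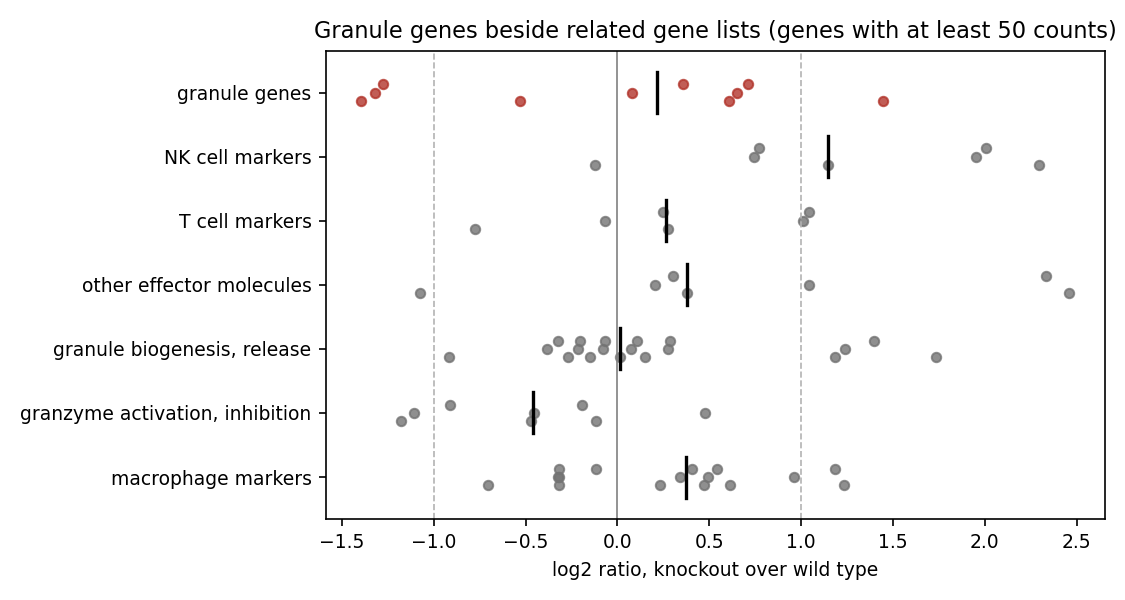
Log2 ratio of knockout over wild type for the granule genes (top row) and for the genes of related lists with at least 50 counts, 1 point per gene, with a black bar at each list's median. Dashed lines mark 2-fold. The granule genes spread from -1.39 to 1.45 while the NK cell markers have a median of 1.15.

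Other effector molecules of killer cells went both ways. Of 7 tested, 3 passed 2-fold upward and 1 downward, against 6.07% and 1.74% of all genes tested. The list median was 0.38. Xcl1, a chemokine released by NK and T cells, had 146 counts in the knockout library and 22 in the wild type library, a ratio of 5.69 (3.62 to 9.37). Ifng, interferon gamma, had 63 counts in the knockout library and 10 in the wild type library, a ratio of 5.41 (2.75 to 11.8). Tnf, also made by macrophages, had a ratio of 2.07 (1.65 to 2.61), while Ccl3, a chemokine of both cell kinds, was 2.11-fold lower (1.99 to 2.23). Fasl, the death ligand, had 16 counts in the knockout library and 6 in the wild type library. Ccl3 was not past 2-fold with library totals, at a log2 ratio of -0.84, or after length adjustment, at -0.72.

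Most of the tested receptors and regulators that act on granzyme genes did not pass 2-fold. Il2rb, the receptor chain through which interleukins 2 and 15 act, was the 1 of 11 cytokine and receptor genes past 2-fold, at 223 counts in the knockout library and 90 in the wild type library, a ratio of 2.13 (1.66 to 2.75). Over all genes tested the share was 6.07%, so 1 of 11 is near the background. Of the 20 genes listed, only these 11 reached the minimum, and with a minimum of 10 counts 4 passed upward. Il18rap, below the minimum, had 31 counts in the knockout library and 2 in the wild type library. The list median was 0.37. Jak1, which had the most counts of that list, lay at 0.12 on the log2 scale, and at -0.33 once length was adjusted for. Of 10 transcription regulators tested, 2 passed 2-fold upward and 0 downward, against 6.07% and 1.74% of all genes tested. The list median was 0.60, and after length adjustment 1 passed. Irf1, an interferon-induced factor that macrophages also express, had 5397 counts in the knockout library and 1799 in the wild type library, a ratio of 2.57 (2.44 to 2.72). Notch2 had a ratio of 2.56 (2.18 to 3.03), and its log2 value of 1.35 was 0.28 after length adjustment. Id2, which had the most counts, had a log2 ratio of -0.22, and of 0.01 with library totals.

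Genes that build and release granules mostly lay between. Of 19 tested, 4 passed 2-fold upward and 0 downward, against 6.07% and 1.74% of all genes tested. After length adjustment 1 passed upward, against 2.14% of all genes tested. The list median was 0.01. Rab27a, a GTPase that docks granules at the membrane, had 147 counts in the knockout library and 55.0 in the wild type library, a ratio of 2.29 (1.67 to 3.19), with a length-adjusted log2 ratio of 1.13. Lyst, Dock8 and Igf2r have long transcripts, and their log2 ratios of 1.24, 1.40 and 1.73 were 0.05, 0.60 and 0.81 after adjustment. Igf2r carries granzymes into cells and lysosomes as a mannose 6-phosphate receptor. Lamp1, the lysosome and granule membrane marker with the most counts in the list, was 1.25-fold lower (1.23 to 1.27).

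Genes of granzyme activation and inhibition were lower in part. Of 8 tested, 2 passed 2-fold downward and 0 upward, against 1.74% and 6.07% of all genes tested. The list median was -0.46. With library totals, with FPKM or with a minimum of 200 counts, 0 passed downward. Serpinb9b and Serpinb1a, serpins of the clade that inhibits granule proteases, were 2.17-fold (1.62 to 2.93) and 2.28-fold (1.70 to 3.09) lower. Both have fractional estimated counts, so sharing with similar copies is possible. Ctsc, the protease that activates granzymes, had a ratio of 1.39 (1.33 to 1.45), and its log2 value of 0.48 was -0.25 after length adjustment. Ctsl, which had the most counts of the list, was 1.88-fold lower, with a length-adjusted log2 ratio of -1.06. Serpinb9, the inhibitor of granzyme B, had 362 counts in the knockout library and 337 in the wild type library, with a log2 ratio of -0.12 after TMM scaling and of 0.12 with library totals.

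The genes nearest in ratio to the sum of Gzmd, Gzme and Gzmg were taken over the 2 libraries by the absolute difference of log2 ratios, which describes nearness only. They were Fkbp11, Npdc1, Cyp1b1, Bc1 and Ifitm6, with log2 ratios from -1.33 to -1.35, against -1.32 for the sum. Fkbp11 had 30 counts in the knockout library and 66 in the wild type library, and Ifitm6 had 148 in the knockout library and 325 in the wild type library.

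The ratio depended on transcript length across the whole data set, and this touches the granule genes because their transcripts are short, 813 to 2054 bases. Genes tested in that range had a median log2 ratio of -0.25, with 1.21% past 2-fold upward and 2.85% downward, against a median of 0.19 for longer genes. With the trend on length removed, the log2 ratios were 0.94 for Gzma, 0.96 for Gzmb, 0.78 for Prf1, 0.70 for Nkg7, 1.69 for Ctsw and 0.40 for Gzmc. They were -0.95 for Gzmd, -0.99 for Gzme, -1.07 for Gzmg and -0.9996 for their sum. After this step 1 gene of the set passed 2-fold upward, Ctsw, and 1 downward, Gzmg, against 2.14% and 1.9% of all genes.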

How the data were processed

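Per the labels' protocols, Trizol RNA of the macrophages went into cDNA libraries for a BGISEQ-500 sequencer. Each deposited table lists, per Entrez gene, transcript length, estimated counts and FPKM, per the file headers. The submitters' processing notes name HISAT2, Bowtie2, RSEM and mm10 with neither roles nor versions. Estimated counts as deposited are not scaled between libraries, and FPKM was scaled by the authors to length and to mapped fragments. Depth was 11740202 estimated counts for knockout and 11885784 for wild type.

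IDs were matched to RefSeq symbols and positions in GRCm38.p6 (the mm10 assembly) for 15561 of 15605 genes. A gene missing from a file was given 0 counts. Counts were rounded and scaled with TMM factors of edgeR 4.0.16 in R 4.3.3, 1.09 for knockout and 0.921 for wild type. Log2 ratios had 1 scaled count added. Genes reaching 50 estimated counts in either library were counted against a 2-fold threshold. List medians are log2 ratios over the genes of a list that reached this minimum. Ratio intervals derive from the 95% exact Clopper-Pearson interval for the share of a gene's reads found in knockout, and intervals of quotients are exact conditional ones. The labels do not give strand handling, so overlapping genes cannot be told apart. Length adjustment subtracted a lowess trend (span 0.3).

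Genes were named by rule: the set, Lgmn, up to 5 genes past 2-fold and the gene with the most counts of each list, Cd3e, Ncr1, Cd8a, Klrb1c, Adgre1, Csf1r and Cpa3, and the 5 genes nearest to the sum. One gene that the rule names is not reported here. Gzmn, Fasl, Serpinb9 and the remaining named genes were chosen after their values were seen, as was the quotient of granzymes. The set and the lists were chosen with earlier results of these data known. Alternatives were library totals, size factors of DESeq2 1.42.0, FPKM plus 0.1, pseudocounts of 0.5 and 5, other minimums, thinning, and thresholds of 1.5-fold and 4-fold. The ratio step was tested on simulated data. Scripts ran in Python 3.11.15 with Biopython 1.88, matplotlib 3.10.9, statsmodels 0.14.6, scipy 1.17.1, pandas 2.3.3 and numpy 2.4.6.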

Additional observations from a re-analysis of the deposited data

How the results depend on the processing

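No paired analysis was possible because there was 1 library per group, and for the same reason no replicate could be left out. The sum of Gzmd, Gzme and Gzmg had a log2 ratio of -1.08 with library totals and with FPKM, and of -0.9996 after length adjustment. Library totals raised the median of all genes tested by 0.24, and no granule gene changed sign under 7 alternatives. The count at least 2-fold higher in the set, 1, was 0 with a minimum of 200 counts, 4 at 1.5-fold and 0 at 4-fold. The count lower, 3, was 1 after length adjustment, 1 with the similar genes counted as a sum and 0 at 4-fold. Over all genes, 577 higher were 936 with FPKM, 1036 with totals, 203 length-adjusted, 923, 274 and 1460 with minimums of 10, 200 and none, and 1563 and 40 at 1.5-fold and 4-fold. The 165 lower were 102 with FPKM, 107 with totals, 436, 67 and 1531 with those minimums, and 607 and 45 at those thresholds. Over all lists outside the set, 19 higher were 32, 9 and 40 with the minimums and 30 and 5 at the thresholds. The 8 lower were 5 with FPKM, 5 with totals, 3 and 22 with minimums of 200 and none, and 14 and 2 at the thresholds. Fewer or more genes tested, or another threshold, move such counts by construction, and for other settings the cause was not tested. The quotient of granzymes had log2 values from -1.99 to -1.94 under the alternatives, chosen after seeing the data.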

Other observations

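Most markers of other cell types that carry granule proteases had few counts. Mast cell chymase genes lie beside the granzymes on chromosome 14, and Cma1 had 47 counts in the knockout library and 34 in the wild type library. Of 12 mast cell markers, 8 were listed, and their summed FPKM was 11 in the knockout library and 10.02 in the wild type library. The tryptase gene Tpsb2, with the most counts, had 57 counts in the knockout library and 50 in the wild type library, a ratio of 0.98 (0.66 to 1.46). The carboxypeptidase gene Cpa3 had 26 counts in the knockout library and 23.0 in the wild type library. A list of the cluster and its neighbours held 15 genes outside the set, most of them on chromosome 14 but Stxbp6 and Nova1 on chromosome 12. Of these, 12 were listed in the files, 2 could be tested and 0 passed 2-fold. Khnyn had the most counts over both libraries, with a ratio of 1.64 (1.27 to 2.14).

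Of 10 neutrophil markers, 1 could be tested, S100a8, with a ratio of 1.08 (0.94 to 1.25). The FPKM of S100a8 was 106 in the knockout library and 83.0 in the wild type library, far above the other markers of that list. S100a9, the usual partner of S100a8, was listed with 1 count in the knockout library and was not listed in the wild type library. Of 8 B cell markers, 5 were listed and 0 could be tested, and Cd79a had 25 counts in the knockout library and 7 in the wild type library. Of 2 dendritic cell markers tested, 1 was at least 2-fold higher, against 6.07% of all genes tested. This was Clec9a, a receptor of cross-presenting cells, with 74 counts in the knockout library and 13 in the wild type library. Bst2, which had the most counts of that list, lay at -0.29 on the log2 scale, and at 0.05 once length was adjusted for. Of 13 fibroblast and epithelial markers, 11 were listed. Only 5, all of fibroblasts, could be tested, and all 5 passed 2-fold downward, against 1.74% of all genes tested. They were the collagen genes Col1a1, Col1a2 and Col3a1, the receptor Pdgfra and the proteoglycan Dcn. Their ratios ran from 2.98-fold lower for Col1a1 to 4.52-fold lower for Col3a1. The epithelial markers listed were all below the minimum. Cdh1 had 21 counts in the knockout library and 11 in the wild type library. In the same order, Krt18 had 4 and 2, Epcam 2 and 1, and Krt8 2 and 5.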
